A study of Mus musculus with 8 samples.

Results

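AMPA receptor auxiliary subunits are membrane proteins that travel with the glutamate-gated AMPA receptor and set its delivery to the synapse, its anchoring there and the speed of its current. The genes described here are 10: the transmembrane AMPA receptor regulatory proteins (TARPs) Cacng2, Cacng3, Cacng4, Cacng5, Cacng7 and Cacng8, the cornichons Cnih2 and Cnih3, and the Shisa family members Shisa6 and Shisa7. They were chosen by gene symbol, each symbol had a single row, and all 10 passed the filter on low values (a mean of at least 10), out of 24338 features with a symbol and 56575 in all. Hippocampal RNA of C57BL/6 mice aged 8 weeks was sequenced in 4 libraries labelled Slm2KO and 4 labelled WT. The labels name no other allele or treatment and do not say which part of the gene the knockout removes, in which cells, or whether each library is from a separate animal, and the spread behind each p-value may therefore be technical. SLM2 is the RNA-binding splicing regulator encoded by Khdrbs3, and the study examined overall expression and splicing in the knockout. The values here are 1 per gene, so they speak to total expression and not to isoforms.

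AMPA receptors are tetramers of the pore subunits encoded by Gria1 to Gria4, and carry most fast excitatory transmission in the hippocampus. TARPs bind the pore subunits, and the type I members among them (Cacng2, Cacng3, Cacng4 and Cacng8) end in a short motif that docks the receptor on PSD-95 family scaffolds; Cacng5 and Cacng7 encode the type II TARPs. Cornichons act in export from the endoplasmic reticulum and slow the closing of the channel, and Shisa proteins alter desensitisation and hold receptors at the postsynaptic density.

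The last 30 coding bases of each gene are shown because they hold the difference between the TARP classes. They are from GENCODE vM21 transcripts (assembly GRCm38), 1 coding transcript per gene, with the last 4 codons and the stop codon in capitals.
Cacng2: acagccaaccgccggACCACGCCCGTATGA
Cacng3: ccggccaacagacgtACCACGCCTGTCTGA
Cacng4: atgctgaaccggcggACGACTCCCGTGTGA
Cacng8: acgctcaacaggaaaACCACGCCCGTGTAG
Cacng5: tatgaccagatgtcaTCATCTCCCTGCTGA
Cacng7: catctccacatctccACTTCGCCGTGCTGA
Cnih2: agtatggtttatacgTTGGTGAGCTTCTAA
Cnih3: tgcatgatttacaccTTAGTGAGCTCCTAA
Shisa6: acagccagcaagactGAAGTGACCGTGTGA
Shisa7: actgccagcaagaacGAAGTGACTGTCTGA
Among the 6 pairs of type I TARPs, 11 to 13 of the 15 capital bases were equal, and between type I and type II members 6 to 10 were. Shisa6 and Shisa7 shared 13 of 15, as did Cnih2 and Cnih3. Relatedness could let reads be assigned to the wrong member, so the coding sequences of all 45 pairs were searched for shared stretches. No pair shared an exact run of 30 bases or more. Exon bases outside the coding sequence and inexact matches were not searched, so the search cannot settle how reads were assigned. The longest run, of 26 bases, was shared by Cacng5 and Cacng7 and read atcgcggtcagcacggactactggct.

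Read counts recovered from the deposited values and summed over all features came to 104020058 to 125985224 in the 8 libraries. These sums need not equal the sequencing depth. Slm2KO 4 had the highest sum of choroid plexus markers and the lowest of excitatory neuron markers, and values without it are given after the single genes. The gene named in the knockout, Khdrbs3, was not reduced under the Slm2KO label. Its normalised read count, the read count divided by a size factor for each library, was 29749 ± 3040 in Slm2KO and 22051 ± 2387 in WT (SD, n = 4 each), and every Slm2KO library lay above every WT library. A count over the whole gene need not show a partial deletion, and directions below refer to the libraries by their labels. Of its relatives, Khdrbs2 rose in Slm2KO by a log2 fold change of 1.18 (limma adjusted p = 0.00761), a call that was lost without Slm2KO 1, Slm2KO 3, WT 1 or WT 4 (adjusted p = 0.0528, 0.0756, 0.0587 and 0.0769) and without the intensity trend (0.172), and Khdrbs1 had one of 0.37 that did not pass (adjusted p = 0.429). All 7 excitatory neuron markers were measured in every library, with a summed count of 370569 to 539739 in Slm2KO and 416862 to 506780 in WT.

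No auxiliary subunit gene passed the threshold between genotypes (0 of 10; limma on log2(value + 1), Benjamini-Hochberg adjusted p of 1.00 for each over 25667 features). Over all features a single one, Khdrbs2, or 0.0039%, passed it. At an unadjusted p under 0.05 the count among the 10 was also 0, against 3.52% of all features, and edgeR's quasi-likelihood test and DESeq2 each called 0 of the 10. The Slm2KO and WT values overlapped for every one of the 10, whereas in the whole table they did not overlap for 1.17% of features with Slm2KO lower and 1.33% with Slm2KO higher. Of the 10 log2 fold changes, 9 were negative and 1 was positive, with a median of -0.07, beside a median of -0.01 and 53.9% negative over all features tested. For 9 of the 10, all but Cacng5, the 95% interval lay wholly inside 1.5-fold up or down, as it did for 65.7% of all features. In whole tissue, fewer cells of a type and less RNA per cell cannot be told apart.

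**Figure D1:**
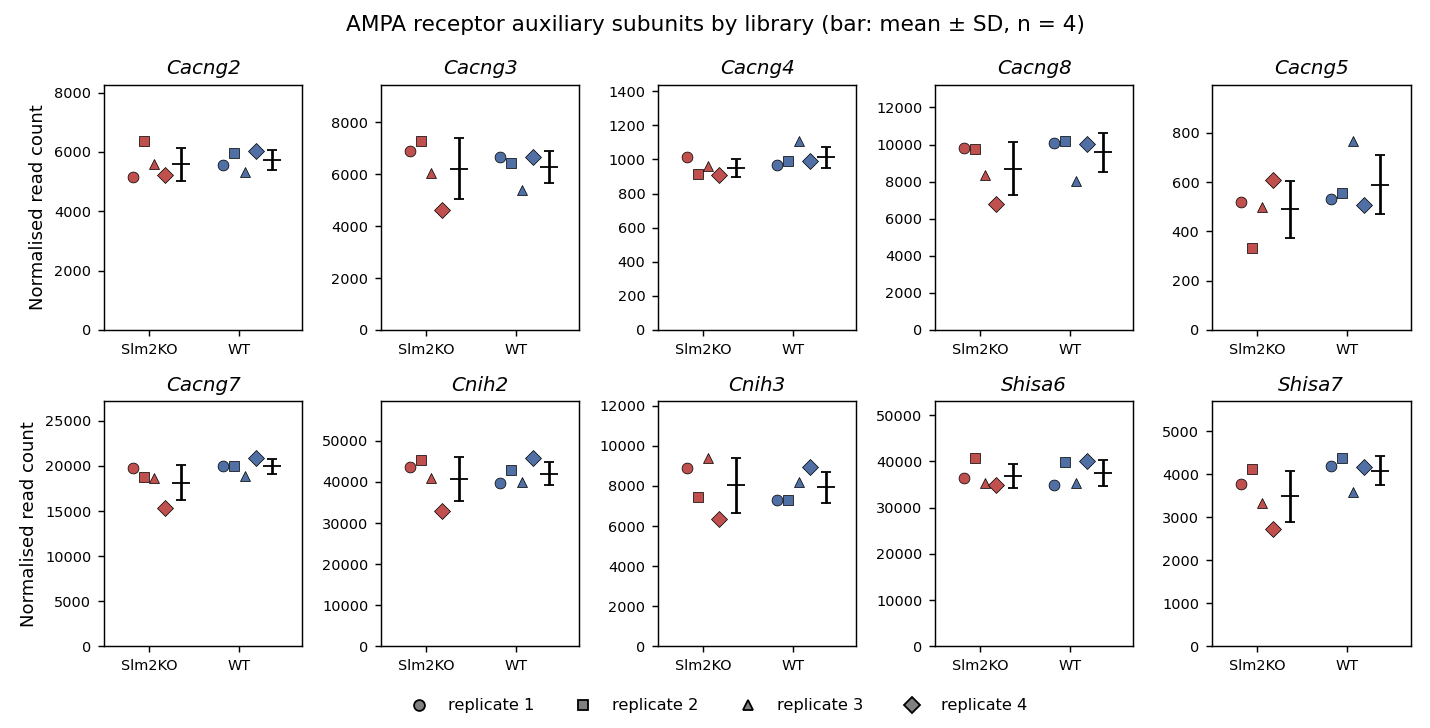
Normalised read count (vertical axis, from 0) of each auxiliary subunit gene in the 4 Slm2KO and 4 WT libraries; symbols are replicates, and the bar is the mean ± SD (n = 4). The groups overlap for all 10 genes, and the Slm2KO replicate 4 library is the lowest for 8 of them.

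**Figure D2:**
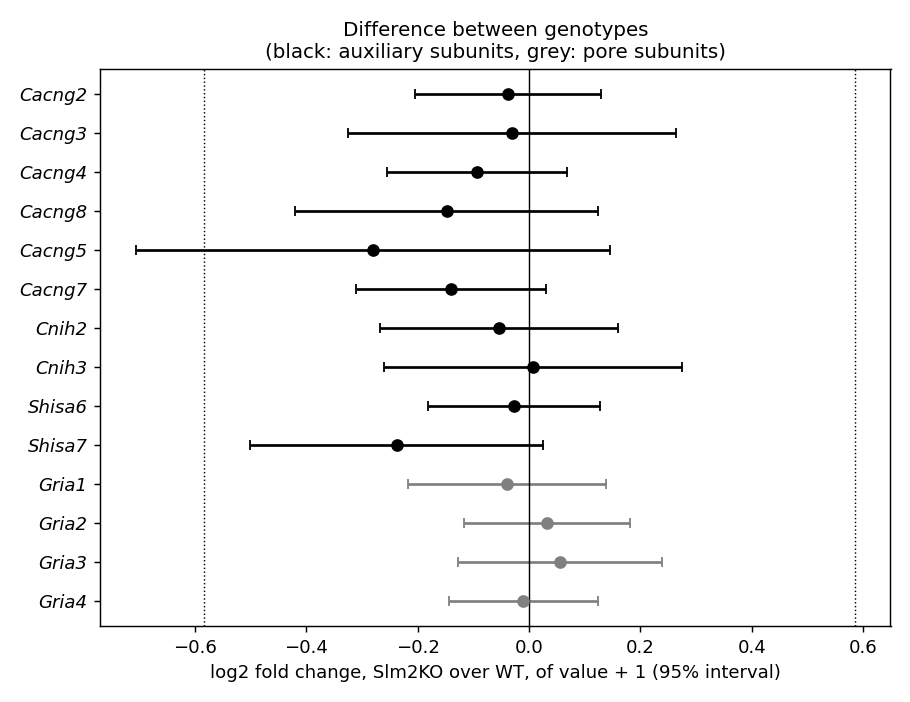
Log2 fold change of Slm2KO over WT, on log2(value + 1), with 95% intervals from limma, for the 10 auxiliary subunits (black) and the 4 pore subunits (grey); dotted lines mark 1.5-fold. Each interval includes 0, and that of Cacng5 alone reaches past 1.5-fold.

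Cacng8 encodes the TARP that is most typical of the hippocampus and is needed there for normal AMPA receptor levels (chromosome 7, 3394117 to 3415605, plus strand, mm10). Its normalised read count was 9838, 9758, 8365 and 6809 in Slm2KO replicates 1 to 4, against 10107, 10166, 8019 and 10010 in WT replicates 1 to 4. Slm2KO 4 was the lowest of all, with WT 3 next, and the groups overlapped. The means were 8692 ± 1426 in Slm2KO and 9575 ± 1040 in WT (SD, n = 4 each). The log2 fold change was -0.15 ± 0.12 (SE), with a 95% interval from 0.747 to 1.09 of WT and a two-sided exact permutation p of 0.371.

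Cacng3, a TARP of the forebrain (chromosome 7, 122671744 to 122769391, plus strand), held 6896, 7264, 6061 and 4641 in Slm2KO, against 6675, 6420, 5376 and 6657 in WT. The highest and the lowest value were both in Slm2KO libraries, so the groups overlapped fully. Its log2 fold change was -0.03 ± 0.13 (SE), and the 95% interval ran from 0.799 to 1.20 of WT.

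Cacng2 encodes stargazin, the TARP found through the ataxic stargazer mouse (chromosome 15, 77993623 to 78120028, minus strand). Its count was 5153, 6353, 5594 and 5236 in Slm2KO, against 5571, 5955, 5323 and 6040 in WT. It was among the steadiest members, with a coefficient of variation of 7.55% over the 8 libraries and a log2 fold change of -0.04 (SE 0.075; limma adjusted p = 1.00).

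Cacng4, a type I TARP also known from the developing brain and from glia (chromosome 11, 107734731 to 107794696, minus strand), was low, at 1017, 912, 962 and 909 in Slm2KO, against 969, 992, 1106 and 991 in WT. Of the Slm2KO libraries only replicate 1 stood above the lower WT values. The log2 fold change was -0.09 ± 0.073 (SE), with a 95% interval from 0.838 to 1.05 of WT and a two-sided exact permutation p of 0.171.

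Cacng7, the more abundant type II TARP (chromosome 7, 3332953 to 3368216, plus strand), lies 25.9 kb upstream of Cacng8 on the same strand. Its count was 19815, 18785, 18639 and 15389 in Slm2KO, against 19976, 20009, 18906 and 20876 in WT. A single Slm2KO library, replicate 1, reached into the WT range, by lying above WT 3. The means were 18157 ± 1918 in Slm2KO and 19942 ± 807 in WT (SD, n = 4 each). The log2 fold change was -0.14 ± 0.077 (SE), with a 95% interval from 0.806 to 1.02 of WT (limma unadjusted p = 0.0958). The two-sided exact permutation p was 0.0571, where 0.0286 is the smallest that 4 against 4 allows.

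Cacng5, the other type II TARP (chromosome 11, 107874605 to 107915056, minus strand), was the least abundant member and the most variable. Its count was 519, 331, 501 and 610 in Slm2KO, against 533, 556, 765 and 505 in WT. Slm2KO 2 was far below the rest and WT 3 far above, a 2.31-fold range with a coefficient of variation of 22.4%. The fewest reads behind a value were 315, for which counting alone gives an SD of 5.63%. Its log2 fold change was -0.28 ± 0.19 (SE), with a 95% interval from 0.613 to 1.11 of WT and a two-sided exact permutation p of 0.343. It rested on single libraries, at -0.10 without Slm2KO 2 and -0.15 without WT 3.

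Cnih2, the main cornichon of hippocampal pyramidal cells (chromosome 19, 5092871 to 5098521, minus strand), held 43581, 45296, 40937 and 32984 in Slm2KO, against 39620, 42767, 39901 and 45797 in WT. Slm2KO 4 lay below all others, and the other 3 Slm2KO libraries lay within the WT range. The log2 fold change was -0.05 (SE 0.096; limma adjusted p = 1.00). Cnih3, its close relative (chromosome 1, 181352627 to 181460641, plus strand), held 8901, 7470, 9389 and 6350 in Slm2KO, against 7308, 7284, 8185 and 8920 in WT. It was the 1 member with a positive log2 fold change, of 0.01 ± 0.12 (SE), and TMM scaling turned the sign (-0.0031). Both extremes of Cnih3 were Slm2KO libraries.

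Shisa6 (chromosome 11, 66211725 to 66526127, minus strand), whose protein keeps AMPA receptors from desensitising, held 36448, 40736, 35259 and 34962 in Slm2KO, against 35005, 39822, 35304 and 40096 in WT. Its 1.17-fold range was the narrowest of the 10, and its log2 fold change was -0.03 ± 0.070 (SE), with a 95% interval from 0.881 to 1.09 of WT. Shisa7, which encodes a relative that also joins GABA-A receptors (chromosome 7, 4825552 to 4844696, minus strand), held 3772, 4119, 3344 and 2735 in Slm2KO, against 4197, 4379, 3595 and 4161 in WT. Slm2KO 3 and Slm2KO 4 lay below every WT library, while Slm2KO 1 and Slm2KO 2 lay inside the WT range. The means were 3493 ± 596 in Slm2KO and 4083 ± 339 in WT (SD, n = 4 each). Shisa7 had the smallest p of the 10 (limma unadjusted p = 0.0715, adjusted p = 1.00; log2 fold change -0.24, SE 0.12; 95% interval from 0.707 to 1.02 of WT; exact permutation p = 0.143).

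Slm2KO 4 was the lowest of the 8 libraries for 8 of the 10 members, Cacng2 and Cacng5 being the exceptions, while 25.7% of all features tested were lowest there. Relative to each gene's mean over the 8 libraries, its median log2 deviation over the 10 members was -0.31, and those of the other 7 libraries ran from -0.05 in WT 3 to 0.12. Without Slm2KO 4 the log2 fold changes were -0.04 for Cacng8, -0.06 for Cacng7, -0.13 for Shisa7, -0.40 for Cacng5 and -0.07 for Cacng4, and none passed. They were 0.10 for Cacng3, 0.04 for Cnih2 and 0.11 for Cnih3, -0.0091 for Cacng2 and -0.0027 for Shisa6, and the median over the members was -0.02.

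**Figure D3:**
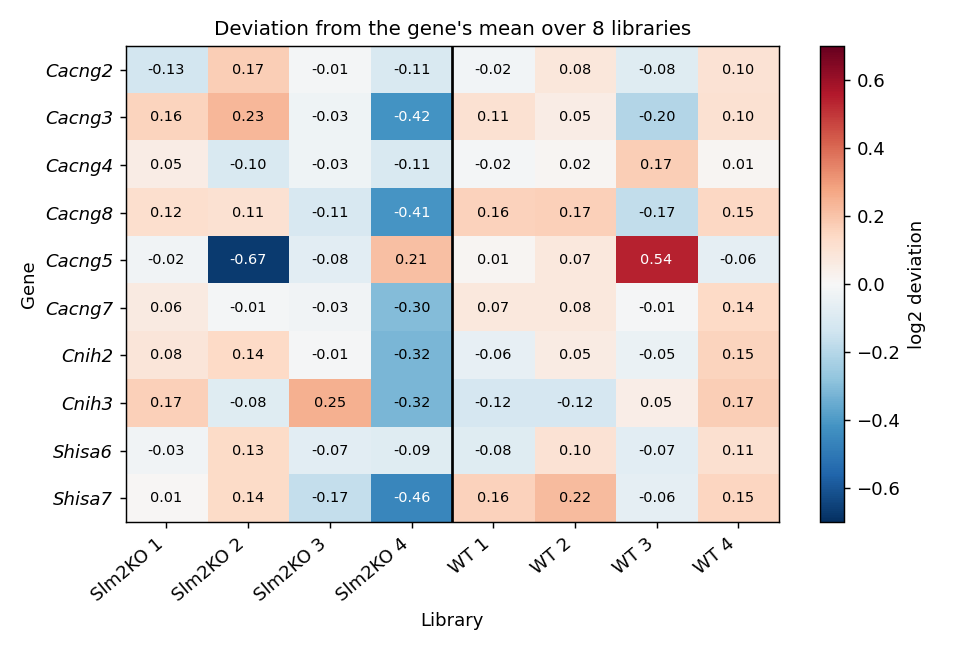
Log2 deviation of each gene (rows) in each library (columns; Slm2KO left of the line, WT right of it) from that gene's mean over the 8 libraries. Slm2KO 4 and Slm2KO 3 are each below the mean for 9 of the 10 genes and WT 3 for 7, with a median deviation of -0.31 in Slm2KO 4, -0.03 in Slm2KO 3 and -0.05 in WT 3; Cacng5 runs from -0.67 in Slm2KO 2 to 0.54 in WT 3.

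The tissue markers also varied between libraries. The summed count of 10 choroid plexus epithelium markers, none of them at 0 in any library, was highest in Slm2KO 4, at 2354570, and ran from 393015 to 879503 in the other Slm2KO libraries and from 230864 to 1861442 in WT. Most of this sum was 1 gene, Ttr (transthyretin, made by choroid plexus), at 2262369 in Slm2KO 4 and 219052 in WT 2. The 7 excitatory neuron markers summed to 370569 in Slm2KO 4, the lowest sum of the 8 libraries, and the 7 dentate gyrus granule cell markers to 22434, against 26956 to 30026 in the other Slm2KO libraries and 29824 to 31415 in WT. WT 3, the library with the next lowest Cacng8 and Cacng3, had the second highest choroid plexus sum. WT 1 had a choroid plexus sum of 1584449 and the second highest Cacng8. Between the genotypes the dentate markers moved the same way as most members. All 7 were negative, with a median log2 fold change of -0.20. Each of the 7 was lowest in Slm2KO 4, as were 25.7% of all features tested. None passed the threshold. An unadjusted limma p under 0.05 was reached by 4, against 3.52% of all features. In 2 (Pdyn and Tdo2) the groups did not overlap, against 1.17% of all features with Slm2KO lower. Also negative were all tested markers of endothelium, oligodendrocyte precursors, and CA2 and CA3 cells, with medians of -0.23, -0.14 and -0.09. The CA1, interneuron and choroid plexus lists had positive medians, of 0.17, 0.05 and 0.0052. The remaining marker lists were mixed, with negative medians. With log2 Ttr, the main part of the choroid plexus sum, as a covariate, the log2 fold changes were -0.14 for Cacng8, -0.14 for Cacng7 and -0.23 for Shisa7, and none passed. The part of the choroid plexus markers and of the neuronal markers, dentate ones included, in these values was not tested.

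The 2 libraries highest for Cacng5 were those with the lowest sums of 7 CA1 pyramidal cell markers, 15950 in Slm2KO 4 and 13842 in WT 3, while the other 6 libraries had 23050 to 27573. The library lowest for Cacng5, Slm2KO 2, had 26320. The 7 measured CA2 and CA3 markers did not follow the same order, with 61245 in Slm2KO 2, 45764 in Slm2KO 4 and 55475 in WT 3. The relation was not particular to CA1 markers: Slm2KO 4 and WT 3 also had the 2 lowest excitatory neuron sums, 370569 and 416862. They had the 2 highest choroid plexus sums as well, 2354570 and 1861442. Slm2KO 2 had the highest excitatory neuron sum, 539739. No marker of these lists was at 0 in any library, and the part of any of them in Cacng5 was not tested.

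**Figure D4:**
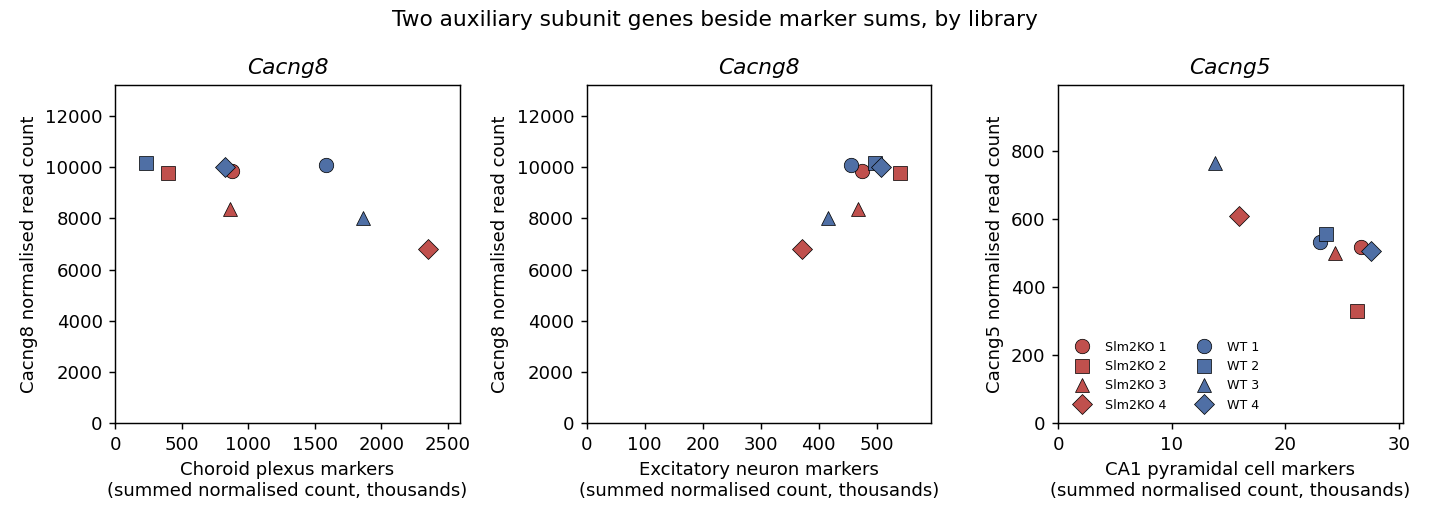
Normalised read count (from 0) of Cacng8 beside the summed counts of choroid plexus and excitatory neuron markers, and of Cacng5 beside those of CA1 pyramidal cell markers; each symbol is 1 library, Slm2KO in red and WT in blue. Slm2KO 4 has the highest choroid plexus sum, 2354570, with the lowest Cacng8, and WT 3 the lowest CA1 sum with the highest Cacng5.

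Likeness between members was measured as Pearson's correlation of log2 values less their group means over the same 8 libraries, and is a description, since all members share those libraries and their tissue makeup. Cacng3, Cacng7, Cacng8, Cnih2 and Shisa7, a set picked after these values were seen, had likenesses of 0.84 to 0.98 among themselves. Each of these genes deviated most from its mean over the 8 libraries in Slm2KO 4, from -0.303 for Cacng7 to -0.455 for Shisa7. That 1 library therefore weighs heavily in these values, and likeness without it was not computed. Cacng5 had negative values with 8 of the other 9 members, down to -0.90 with Cacng2, and a positive one, 0.56, with its chromosomal neighbour Cacng4, 79.9 kb away. Among 17594 other genes with a symbol, the nearest pattern was that of Map2 to Cacng8 (0.996), Ephb3 to Shisa7 (0.997), Gars to Cacng7 (0.997), Ttc9b to Cnih2 (0.996), Zfp697 to Cacng3 (0.995), Stx8 to Cnih3 (0.996), Prkca to Shisa6 (0.993), Ces1d to Cacng5 (0.990), Sumf2 to Cacng4 (0.984) and Gmpr2 to Cacng2 (0.977). Each is the highest of 17594 values over only 8 libraries, a choice that gives high values by itself, so no link between the genes is read from it.

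To compare levels between genes, each count was divided by the annotated exon length inside the gene's coordinates in the table. On this scale, the normalised read count per kb, Cnih2 was the highest, at 29795 ± 3988 in Slm2KO and 30762 ± 2116 in WT (SD, n = 4 each), and no library of another member reached it. Cacng7 was next, at 7454 ± 787 in Slm2KO and 8186 ± 331 in WT, and its range over the 8 libraries did not overlap that of any other member. Cacng8, Shisa6 and Cacng3 followed with means over the 8 libraries of 4997, 4995 and 4103, and their ranges overlapped from 1 to the next, as did those of Cacng3 and Cnih3 (2899). Cacng2 (1555), Cacng4 (818), Shisa7 (571) and Cacng5 (141) came in that order with ranges that did not overlap between neighbours. The order depends on which exons are taken as counted, on which the labels are silent: by coding length, or by the exons of the whole annotated gene, 4 of the 10 genes held the same rank, namely Cnih2 and Cacng7 at the top, Cacng2 at the seventh place and Cacng5 at the bottom. The gap below Cacng7 did not hold by coding length. There its range, 18654 to 25304 per kb, took in that of Shisa6, 20923 to 24378.

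**Figure D5:**
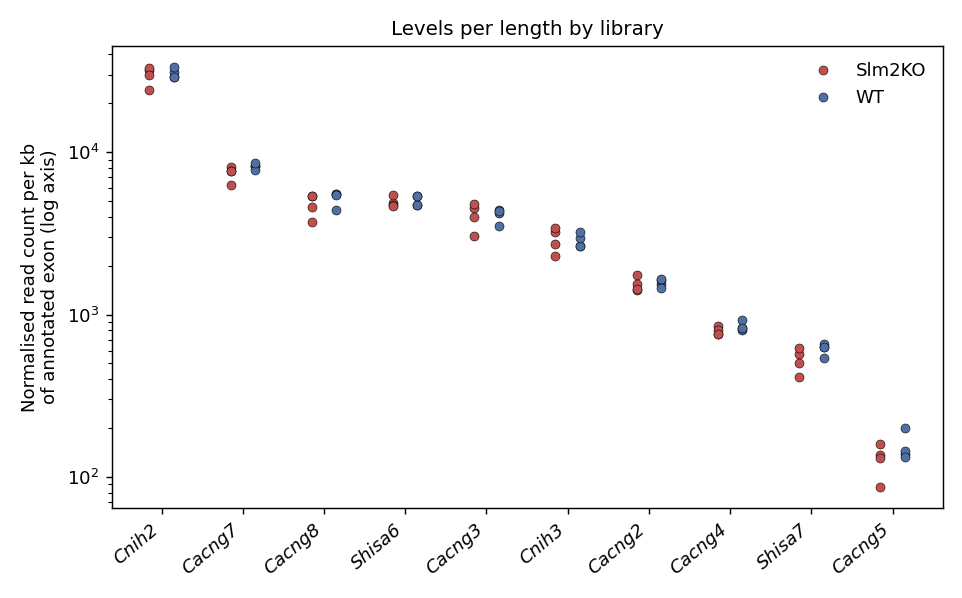
Normalised read count per kb of annotated exon (log axis) in each Slm2KO library (red, left) and WT library (blue, right), with genes ordered by their mean over the 8 libraries. Means run from 30278 for Cnih2 to 141 for Cacng5, and the genotypes overlap for every gene.

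The make-up of the family was set out as shares on this scale. The cornichons held 57.4% ± 0.82 of the summed count per kb in Slm2KO and 56.6% ± 1.33 in WT (SD, n = 4 each). The TARPs held 32.9% ± 0.40 in Slm2KO and 33.9% ± 1.37 in WT, and the Shisa genes 9.68% ± 0.86 in Slm2KO and 9.52% ± 0.28 in WT. Within the TARPs, Cacng7 held 39.9% ± 1.49 in Slm2KO and 40.7% ± 1.25 in WT, and Cacng8 25.3% ± 1.13 in Slm2KO and 26.0% ± 1.37 in WT. The shares depend on the length used: by coding length Cacng8 held 15.2% ± 0.93 of the TARP sum in Slm2KO and 15.6% ± 1.00 in WT, and the Shisa genes 15.1% ± 1.27 of the family in Slm2KO and 14.9% ± 0.45 in WT. All of these shares overlapped between genotypes under each length. The summed level of the 10 members was 2.95, 2.85, 2.76 and 2.59 times that of the 4 pore subunits per kb in Slm2KO replicates 1 to 4, against 2.97, 2.83, 2.95 and 2.96 times in WT. Slm2KO 4 and Slm2KO 3 were under every WT library in this ratio, and the groups overlapped through the other 2. By coding length Slm2KO 2 was under every WT library too, at 2.46 against 2.48 in WT 2, the lowest WT library. The groups then overlapped through Slm2KO 1 alone. Cnih2 by itself held 52.3% of the member sum per kb of annotated exon in Slm2KO and 51.8% in WT.

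Ratios between 2 members cancel what both share in a library, and 2 of the 45 pairs (4.44%) gave ratios that did not overlap between genotypes. For all ratios of a member to another feature tested the share was 2.49%. Per kb, Cacng8 was 1.19, 1.12, 1.15 and 1.22 times Cacng3 in Slm2KO, against 1.26, 1.32, 1.24 and 1.25 times in WT. Every Slm2KO library lay below every WT library, with a narrow gap between Slm2KO 4 and WT 3. The other pair was Cacng3 over Shisa7, whose mean log2 ratio of counts was 0.83 in Slm2KO and 0.62 in WT. These pairs were singled out after all ratios had been computed and share the gene Cacng3, and no test was made of them.

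The pore subunits that the auxiliary proteins bind did not pass either (0 of 4; 2 positive, 2 negative). Gria2, the calcium-blocking subunit and the most abundant by count, was 108652 ± 7504 in Slm2KO and 106186 ± 6224 in WT, and Gria1, which the strengthening of synapses draws on, was 50622 ± 4771 in Slm2KO and 51968 ± 3856 in WT (SD, n = 4 each). The log2 fold changes were 0.03 for Gria2, -0.04 for Gria1, 0.06 for Gria3 and -0.01 for Gria4, and each 95% interval lay inside 1.5-fold up or down.

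Other genes of the pathway gave 0 genes past the threshold in either direction. Among 12 relatives of the auxiliary families, 10 matched a symbol, 9 were tested, and 4 were positive and 5 negative. Cacng6, a calcium channel gamma subunit that is not a TARP and neighbours Cacng8, was low, at 39.7, 28.4, 51.8 and 30.2 in Slm2KO, against 57.1, 61.5, 43.5 and 70.8 in WT. Slm2KO 3 alone lay above a WT library, and the gene had a log2 fold change of -0.64 (SE 0.25; limma unadjusted p = 0.0274, adjusted p = 1.00); it also stands on a second, shorter row of the table. Cnih4, a cornichon of general export, was at 0.08, and Prrt1, an AMPA receptor partner also called SynDIG4, at -0.20. Cacng1, the gamma subunit of skeletal muscle, had counts of 1.05 to 11.1 in Slm2KO and 2.87 to 4.05 in WT and fell under the filter.

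Of 8 genes of AMPA receptor assembly, 7 were negative and 1 positive, with a median of -0.03; Cpt1c, Porcn and Gopc, which act in the endoplasmic reticulum or Golgi, had log2 differences of -0.08, -0.09 and -0.04. Of 9 extracellular partners, 8 were tested and 7 were negative, with Nptx2, a pentraxin that clusters AMPA receptors, at -0.26, and the adhesion proteins Lrrtm2 and Lrrtm4 at -0.07 and -0.09. Nptx2 held 1341, 1420, 1234 and 863 in Slm2KO, against 1200, 1315, 1639 and 1621 in WT, again with Slm2KO 4 lowest. Of 18 scaffold and trafficking genes, 17 were tested, 4 were positive and 13 negative, with a median of -0.04. Grip2, Grip1 and Ap3d1, which bind receptor tails or sort receptors, were at -0.10, 0.06 and -0.07. Slm2KO 4 was the lowest library for 7 of the 8 assembly genes and 14 of the 17 scaffold and trafficking genes.

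The table held 7 features that overlap the span of a member, 2 of them on its strand, and 3 share no annotated exon base with it. Shared exon bases here are the member's annotated exon bases inside the other feature's span, also those just past the member's own coordinates. The library kit does not mark strand, so reads from exon bases shared by opposite strands cannot be told apart. A feature without a symbol opposite the start of Cacng4 (GSMG0006050; chromosome 11, 107793864 to 107795982) had the largest count relative to its host, 6.56% of that of Cacng4, and shares 313 exon bases with it. It held 61.0, 44.2, 57.0 and 68.9 in Slm2KO, against 78.1, 70.5, 64.8 and 70.8 in WT, and Slm2KO 4 alone lay in the WT range (log2 fold change -0.31, SE 0.18; limma adjusted p = 1.00). A730060N03Rik, opposite the start of Cacng2, had 3.97% of its host's count with 325 shared exon bases. Yif1a, whose span takes in 12 annotated exon bases at the 3′ end of Cnih2, had 3.01%, and Gm12296, whose span takes in 6508 exon bases of Shisa6, had 0.167%. Of the rest, 1 inside Cacng3 was listed at 0 in every library and 1 inside Cacng4 fell under the filter. A feature without a symbol inside an intron of Cacng7 (GSMG0033934; chromosome 7, 3337541 to 3337879) had 1.12% of the count of Cacng7. None of the 5 that could be tested passed.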

How the data were processed

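Per the labels' protocols, frozen hippocampi gave 8 libraries made with the Illumina TruSeq RNA kit, which does not mark strand. The deposited values are a signal, read counts that the authors normalised; the submitters' processing notes name DESeq, FastQC, Picard and SAMtools. No label or header names an aligner or counter. The build is mm10 per the file header, although those notes name hg19. Deposited values were whole multiples of 1 step per library (100% within 0.001 of a read), so whole reads could be recovered; in WT 1 the step alone could not be told from rounding.

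Groups were compared with limma 3.58.1 under R 4.3.3, using log2(value + 1) and a trend on intensity, for features with a mean of at least 10, with Benjamini-Hochberg adjustment over all and a threshold of 0.05. Fold changes are on that scale. The procedure was tested on simulated data with 50 features changed at each fold. It recovered 12% of them at 1.3-fold, 36% at 1.5-fold, 64% at 2-fold and 86% at 4-fold, with 5 false calls. Most changes of 1.5-fold or less were thus missed at this threshold. The changed features were drawn from all those tested, so these shares are not specific to the members. Exact permutation tests were two-sided. Exon lengths came from GENCODE vM21. Alternatives used edgeR 4.0.16, DESeq2 1.42.0 and other settings. Figures used Python 3.11.15 and matplotlib 3.10.9.

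Members and gene lists were chosen with earlier results of these data known. Named genes were all members, the STAR and pore subunit genes, the 3 with the smallest p of each other pathway list, and the gene most like each member. Listed genes without a matching symbol were not analysed here.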

Additional observations from a re-analysis of the deposited data

Results flagged for a closer look

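In 2 of 20 sets of 4 libraries (each member in each genotype), 1 library lay far from the other 3, by the gap to its nearest neighbour as a share of the whole range; chance gives about 1 in 20. Both were WT 3. Cacng8 was 8019 there, with the other WT libraries at 10010 to 10166 (share of 0.927). Cacng4 was 1106 there, with the other WT libraries at 969 to 992 (share of 0.838). Without WT 3 the log2 fold change was -0.23 for Cacng8 and -0.05 for Cacng4, and neither passed.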

How the results depend on the processing

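No member passed under any of 22 alternatives (smallest adjusted p 0.770), and at an unadjusted p under 0.05 at most 1 did. Signs of small differences turned: Cnih3 with TMM factors (-0.0031), Cacng3 with array weights (0.028), and, leaving out Slm2KO 4 and WT 2 (the extremes of Ttr), Cacng2 (0.011), Cacng3 (0.12), Cnih2 (0.053) and Shisa6 (0.026), where the median over the members was 0.0029. With single libraries left out, the log2 fold changes ran from -0.10 to -0.0015 for Cacng2, -0.11 to 0.10 for Cacng3, -0.13 to -0.052 for Cacng4, -0.40 to -0.10 for Cacng5, -0.18 to -0.063 for Cacng7, -0.23 to -0.036 for Cacng8, -0.11 to 0.044 for Cnih2, -0.074 to 0.11 for Cnih3, -0.076 to 0.0053 for Shisa6 and -0.32 to -0.13 for Shisa7. The features called in the whole table were 0 without the intensity trend, 2 with a pseudocount of 10 or Ttr as a covariate, 9 by DESeq2, 1 by edgeR's quasi-likelihood test, and 0 to 2 with a library left out; the cause was not tested. Quantile normalisation gave 593 higher and 403 lower features at that unadjusted p, against 436 and 468 as reported. With the replicate block 1 feature was called, and 999 against 904 had an unadjusted p under 0.05. The deviations of same-numbered libraries had correlations of 0.12 and 0.32 for numbers 1 and 2, and -0.07 and -0.12 for 3 and 4. Pairs with unlike numbers ran from -0.32 (Slm2KO 4 with WT 2) to 0.32 (Slm2KO 4 with WT 3). A pairing by number therefore cannot be read from these values. Replicates 1 and 2 of both groups also had lower sample numbers than replicates 3 and 4. With this series of sample numbers as a covariate, no member passed. Of the 10 ranks per length, 4 held with coding length and 4 with the exons of the whole annotated gene, an alternative chosen after seeing the data, as was the recomputing of the shares. In Slm2KO the shares by coding length were 58.7% for the cornichons, 26.3% for the TARPs and 15.1% for the Shisa genes, with 52.0% of the TARP sum for Cacng7 and 15.2% for Cacng8, and the ratio to the pore subunits was 2.43. By the exons of the whole gene they were 61.6% for the cornichons, 28.0% for the TARPs and 50.4% for Cacng7. Khdrbs2 was called in 17 of the 22 alternatives. The spread between libraries limits these values more than depth: the fewest reads behind a member's value were 315.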
